A study of Homo sapiens with 4 samples.

Results

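The zinc finger genes examined here are 42 protein-coding genes of the long arm of chromosome 19, in the clusters of band 19q13.4, taken from a fixed list of symbols and followed through every array probe set annotated to just 1 of them. Of the 42 genes, 36 had such a probe set, 69 probe sets in all, against 19775 genes with a single-symbol probe set on the array. The other 6 (ZNF525, ZNF534, ZNF761, ZNF816, ZNF841 and ZNF845) are not analysed here, nor are 4 probe sets that list a member together with another gene. In the gene order of RefSeq the members form a proximal block of 34 genes and a distal block of 8 genes, separated by the widest gap between neighbours, and 28 and 8 of them had values.

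The cells were BT474, a luminal human breast cancer cell line in which ERBB2 (HER2) is amplified. They were given vehicle or 0.5 mM AICAR for 24 h in regular DMEM. AICAR is a nucleoside that cells phosphorylate to ZMP, a purine synthesis intermediate that mimics AMP and activates the energy sensor kinase AMPK. Each group had 2 Affymetrix arrays of biotin-labelled total RNA, and the labels do not state whether separate cultures were used; the p-values therefore reflect the scatter among these arrays alone, and that scatter may be technical. In bulk RNA, fewer cells with a transcript and less of it per cell cannot be told apart.

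C2H2 zinc finger proteins bind DNA through tandem fingers, each folded around a zinc ion by a pair of cysteines and a pair of histidines. Many of those on chromosome 19 also carry a KRAB domain, which recruits the scaffold protein TRIM28 (KAP1), and through it histone methyltransferases and heterochromatin proteins that silence the bound locus. The family expanded by repeated local duplication, many members bind endogenous retroviruses and other transposable elements, and the paralogs in a cluster can be similar enough in sequence that a short array probe may recognise more than 1 of them.

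The promoters of the members share stretches of letters, and 4 of them are shown because their genes include the member that rose and those with some of the larger negative differences. ZNF649, the member that fell, had no promoter window, nor had ZNF480 or ZNF610, so the comparisons of promoters leave them out. Each run is the 250 bases before a gene start in RefSeq (GRCh38.p14), 5′ to 3′ on the gene's strand, with the 10 letters AGGCCCCGCC in capitals. ZNF701 also has another window, and a window with these letters was chosen for it. ZNF880 lies at chr19:52369673-52369922 on the plus strand, ZNF347 at chr19:53159054-53159303 on the minus strand, ZNF701 at chr19:52570037-52570286 on the plus strand and ZNF587 at chr19:57849609-57849858 on the plus strand.
ZNF880: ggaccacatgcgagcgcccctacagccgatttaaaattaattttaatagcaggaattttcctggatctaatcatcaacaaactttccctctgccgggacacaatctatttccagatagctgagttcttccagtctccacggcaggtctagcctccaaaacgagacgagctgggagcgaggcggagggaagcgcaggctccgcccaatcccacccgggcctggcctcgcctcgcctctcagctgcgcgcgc
ZNF347: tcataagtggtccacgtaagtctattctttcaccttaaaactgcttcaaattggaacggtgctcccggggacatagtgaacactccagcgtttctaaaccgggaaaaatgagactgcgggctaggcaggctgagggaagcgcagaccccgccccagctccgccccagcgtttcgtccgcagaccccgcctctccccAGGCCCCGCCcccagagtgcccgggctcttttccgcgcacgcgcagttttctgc
ZNF701: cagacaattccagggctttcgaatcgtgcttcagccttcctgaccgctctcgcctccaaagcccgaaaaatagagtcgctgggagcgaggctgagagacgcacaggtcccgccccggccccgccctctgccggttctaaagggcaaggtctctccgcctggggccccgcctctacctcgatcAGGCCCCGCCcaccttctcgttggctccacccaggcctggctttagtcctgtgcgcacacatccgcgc
ZNF587: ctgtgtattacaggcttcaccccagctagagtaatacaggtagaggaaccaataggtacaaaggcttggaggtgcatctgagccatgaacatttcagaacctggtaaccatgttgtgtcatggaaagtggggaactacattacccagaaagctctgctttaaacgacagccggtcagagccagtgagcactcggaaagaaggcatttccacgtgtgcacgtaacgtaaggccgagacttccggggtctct
The string AGGCCCCGCC, or its reverse complement GGCGGGGCCT, is the 10-letter string that the windows of the most member genes hold, and it was found by counting all such strings in them. Of 34 member genes with a promoter window 16 held it (47.1%), against 3.42% of 27305 genes, and all 16 belong to the proximal block, where 28 members had a window, while 0 of 6 distal members held it. A gene was counted as holding it when any of its windows did. ZNF347 and ZNF701 hold it once each in the window shown, and ZNF880 and ZNF587 do not. The string overlaps the GC box letters GGGCGG, which 65.2% of 46 member windows hold on either strand, against 42.6% of 35116 windows of all genes. CpG dinucleotides numbered 17.5 per window in the median over member windows and 11 over all windows. The ETS-type letters CCGGAAG stood in 19.6% of member windows and 8.52% of all windows, on either strand, and the ERR-type letters TCAAGGTCA in 0 of 46 and 0.319%. A match is a description of letters, and its absence says only that the letters are not in this window. Among members with values above the bound for dim genes, the 8 with AGGCCCCGCC had differences between AICAR and vehicle of -0.41 to 0.16 (log2, median -0.06) and the 15 with a window but without it -0.29 to 0.46 (median -0.08), so the ranges overlapped over most of their width.

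After 24 h of AICAR, the share of 19q13.4 zinc finger genes that passed the test was near that of all genes. Of 29 members bright enough to test, 1 rose, ZNF880, and 1 fell, ZNF649, by less than 1.5-fold each. At a bound of 1.5-fold 0 members passed (limma), against 2.16% of all genes tested. The 2 calls are 6.90% of the members, against 9.82% of all 13842 genes tested (4.63% higher and 5.19% lower). A gene was represented by its probe set with the highest mean, genes with a mean under the 30th percentile (6.11 on the log2 scale) were not tested because they are dim, and rose or fell means an adjusted p under 0.05 in limma, two-sided, with Benjamini-Hochberg adjustment over all 13842 genes. Over all genes 641 were higher and 718 lower, a split that turned to 854 and 624 after quantile normalization. At an unadjusted p under 0.05 there were 2 higher and 6 lower members, against 12.8% and 13.3% of all genes tested.

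The remaining differences of the members were small and more often negative than positive. Over the 29 tested members, 20 differences were negative and 9 positive, with a median of -0.08 (log2) and a middle 50% from -0.21 to 0.01, beside a median of 0.01 over all genes tested, of which 47.6% were negative. The median of the members was -0.021 both without AICAR replicate 1 and when the probe sets of each gene were averaged, so its distance from 0 rests in part on 1 array and on the choice of probe set. In the fit of all 36 members without a filter, 24 were negative and the median was again -0.08; there ZNF880 alone passed, 1 of 36 against 3.66% of 19775 genes. The list was described and not tested. The 95% confidence interval of the difference lay within 1.5-fold in either direction for 25 of the 29 members, against 91.7% of all genes tested; the exceptions were ZNF880, ZNF347, ZNF480 and ZNF701.

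**Figure D1:**
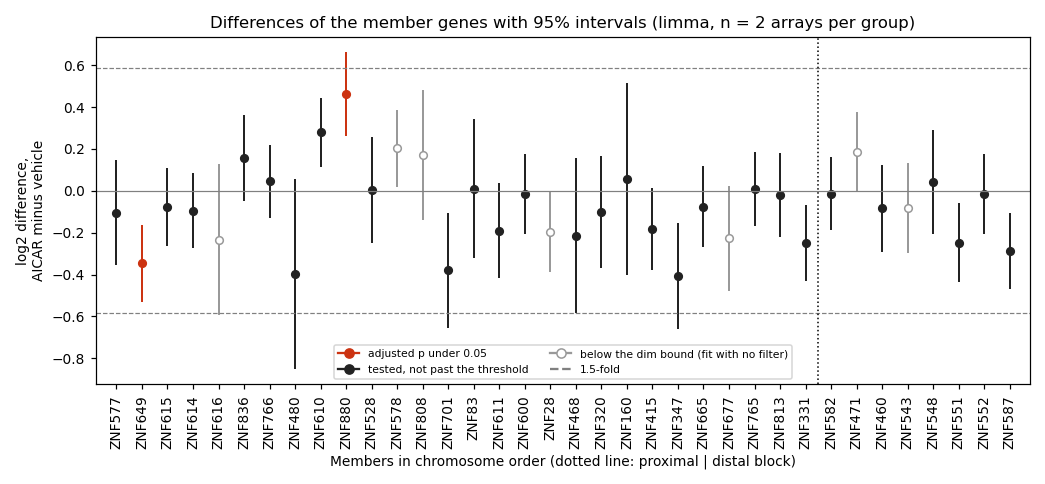
Difference AICAR minus vehicle (log2, y axis) of the 36 members with values, in chromosome order, with 95% confidence intervals from limma (n = 2 arrays per group); red points passed the threshold, open grey points lay below the dim bound and come from the fit without a filter, and dashed lines mark 1.5-fold. The red points are ZNF880 at 0.46 and ZNF649 at -0.35, and most other intervals include 0.

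ZNF880, a C2H2 zinc finger gene of the proximal block, was the member with the largest difference. Its probe set 235913_at read 6.54 and 6.52 (log2) on the vehicle arrays and 6.90 and 7.08 on the AICAR arrays. Both AICAR arrays were above both vehicle arrays, the vehicle pair nearly coincided (SD 0.01, n = 2), and the AICAR pair was farther apart (SD 0.12, n = 2). The difference was 0.46 (SE 0.0812, 95% confidence interval 0.27 to 0.66), a 1.38-fold increase (limma adjusted p = 0.0229). Its other probe set, 232315_at, was dim, at 3.81, 3.51, 3.76 and 3.88 in the same order of arrays, and differed by 0.16 with overlapping groups. The gene lay close to the bound for dim genes, and with the mean of both probe sets it fell below that bound and was not tested. Without vehicle replicate 1, vehicle replicate 2 or AICAR replicate 2 it did not pass (adjusted p = 0.126, 0.119 and 0.0587), and without AICAR replicate 1 it did (0.0240).

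The member next to it in chromosome order, ZNF610, was the only other of the 29 tested members with an unadjusted p under 0.05 in the same direction; the dim ZNF578 also had one in the fit without a filter (difference 0.20). It read 7.08 and 7.05 with vehicle and 7.32 and 7.36 with AICAR (log2). The groups were apart and both pairs were tight. The difference was 0.28 (SE 0.0671, adjusted p = 0.0515), just outside the threshold, and ZNF610 passed after quantile normalization (adjusted p = 0.0442) and with averaged probe sets (0.0394), but in none of the 4 fits with 1 array left out. On its other side in the order, ZNF480 had a negative difference, so the sign was not shared along this stretch.

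ZNF649, a KRAB zinc finger protein reported to repress reporter genes driven by serum response and AP-1 elements, was the member that fell. Its single probe set, 223616_at, read 8.13 and 8.01 with vehicle and 7.76 and 7.69 with AICAR (log2). The groups did not overlap. The difference was -0.35 (SE 0.0752, 95% confidence interval -0.53 to -0.17), a 1.27-fold decrease (limma adjusted p = 0.0394). It did not pass without the dim filter (0.0774) or among probe sets with no _s or _x mark (0.0507), nor without vehicle replicate 1, vehicle replicate 2, AICAR replicate 1 or AICAR replicate 2 (0.230, 0.115, 0.0654 and 0.102), and its difference ranged from -0.40 to -0.29 over these 4 fits.

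Of the members that did not pass, those with the largest differences were ZNF347, ZNF480 and ZNF701, proximal genes of the C2H2 family. ZNF347 read 7.24 and 6.96 with vehicle and 6.72 and 6.67 with AICAR (log2), which gave -0.41 (SE 0.103, 95% confidence interval from -0.66 to -0.16; adjusted p = 0.0594). Its vehicle arrays were farther apart than its AICAR arrays, and the groups did not overlap. Its dimmer probe set differed by -0.18. ZNF347 passed after quantile normalization (adjusted p = 0.0497), with a trend and robust variances (0.0323) and with the replicate number as a block (0.0410). It did not pass without the dim filter (0.102), with averaged probe sets (-0.30, adjusted p = 0.124) or in any of the 4 fits with 1 array left out, and without vehicle replicate 1 its difference was -0.27 (0.262).

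ZNF480 read 6.89 and 7.04 with vehicle and 6.87 and 6.26 with AICAR (log2). AICAR replicate 1 lay just under the vehicle arrays and AICAR replicate 2 far below them, and this AICAR pair had the highest SD of any member within a group (0.43, n = 2). The difference was -0.40 (95% confidence interval -0.85 to 0.05, adjusted p = 0.238), which became -0.70 without AICAR replicate 1 (adjusted p = 0.0210) and -0.09 without AICAR replicate 2 (0.577).

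ZNF701 read 7.35 and 7.49 with vehicle and 6.89 and 7.19 with AICAR (log2), or -0.38 (95% confidence interval from -0.65 to -0.11; adjusted p = 0.0894) for the difference. The groups were apart, with AICAR replicate 1 the lowest. That probe set carries the _x mark, by which Affymetrix flags probes that may hybridise to other transcripts, while the gene's other probe set, without a mark, differed by -0.04 (adjusted p = 0.799 when only probe sets without _s or _x were used). ZNF701 passed without AICAR replicate 2 (-0.53, adjusted p = 0.0437), with a trend and robust variances (0.0461) and with the replicate block (0.0426). Without AICAR replicate 1 its difference was -0.23 (adjusted p = 0.198), with averaged probe sets -0.21 (0.176), and it did not pass without either vehicle array (0.203 and 0.308).

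**Figure D2:**
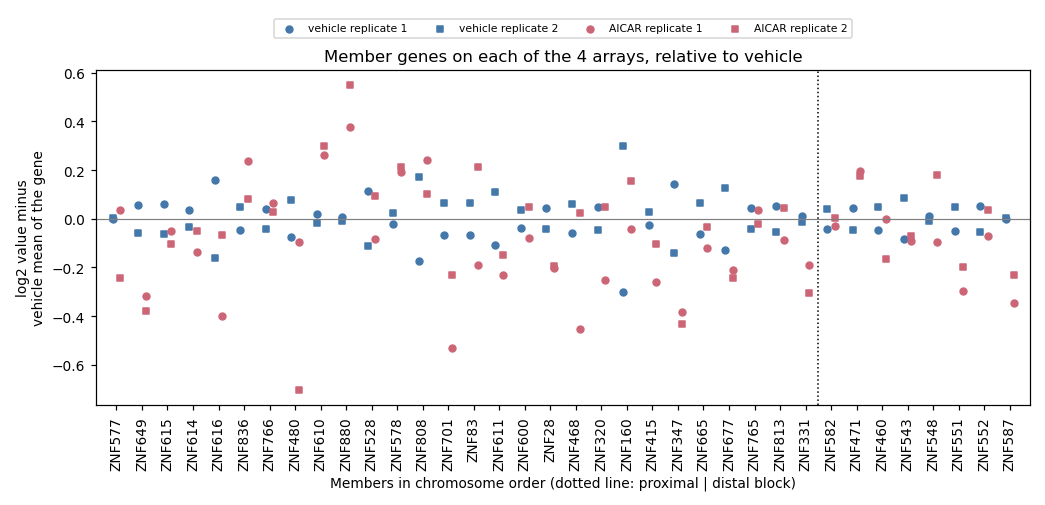
Value of each member on each of the 4 arrays minus the vehicle mean of that gene (log2, y axis), in chromosome order, with vehicle in blue, AICAR in red, replicate 1 as circles and replicate 2 as squares. ZNF880 has both red points above the blue pair and ZNF649 both below, while ZNF480, ZNF468 and ZNF160 show replicates of 1 group far apart.

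Another 3 members had an unadjusted p under 0.05 and an adjusted p above the threshold, all with lower values under AICAR. ZNF331, an imprinted gene, read 8.19 ± 0.017 with vehicle and 7.94 ± 0.081 with AICAR (SD, n = 2 each), groups that did not overlap, a difference of -0.25 (adjusted p = 0.0878), while the dimmer probe set gave -0.39. With the mean of both probe sets it passed (-0.32, adjusted p = 0.0411), and so it did with a dim bound at the 50th percentile (0.0465). ZNF587, a distal member whose protein is known to bind endogenous retroviruses, read 9.64 on both vehicle arrays and 9.29 and 9.41 with AICAR, a difference of -0.29 (adjusted p = 0.0600). The second probe set gave -0.33, and both carry the _x mark. It passed with a trend and robust variances (0.0135) and with the higher dim bound (0.0297). Neither ZNF331 nor ZNF587 passed in any of the 4 fits with 1 array left out. The third was ZNF551, also distal, at -0.25 (adjusted p = 0.0984), but only 2 of its 4 probe sets were negative and the highest differed by 0.20.

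In 13 of the 29 tested members the AICAR arrays did not overlap the vehicle arrays, 3 higher and 10 lower, against 56.6% of all genes tested (28.5% higher and 28% lower). The 13 were ZNF880, ZNF610 and ZNF836 on the higher side, and ZNF649, ZNF347, ZNF480, ZNF701, ZNF331, ZNF587, ZNF551, ZNF611, ZNF415 and ZNF614 on the lower side. ZNF611, known to bind SVA retrotransposons, differed by -0.19 (adjusted p = 0.252), and its dimmer probe set by 0.23. The difference of ZNF415, reported to repress p53 and AP-1 reporter activity, was -0.18 (adjusted p = 0.213). The replicates of members were somewhat farther apart than those of all genes tested, with a median SD of 0.07 against 0.05 (log2) in the vehicle pair and 0.09 against 0.06 in the AICAR pair.

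The 3 members with the highest probe set means were ZNF160, ZNF468 and ZNF765, although brightness on an array does not order genes by abundance. ZNF160, reported to repress the TLR4 gene with TRIM28, read 9.97 and 10.57 with vehicle and 10.23 and 10.43 with AICAR, so the vehicle arrays enclosed the AICAR arrays. Its difference was 0.05 (95% confidence interval -0.40 to 0.51, adjusted p = 0.886), with only 2 of 5 probe sets positive. ZNF468 read 9.98 and 10.10 against 9.59 and 10.06, and its difference of -0.21 (95% confidence interval from -0.58 to 0.15; adjusted p = 0.422) came from AICAR replicate 1, without which it was 0.02. ZNF765 read 9.88 and 9.80 against 9.88 and 9.82, and its difference of 0.01 (95% confidence interval from -0.17 to 0.18; adjusted p = 0.960) was -0.0038 after median centring.

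Another 10 tested members of the proximal block had differences between -0.10 and 0.04, with overlapping arrays or, in ZNF614, groups only just apart. They were ZNF577, ZNF615, ZNF614, ZNF766, ZNF528, ZNF83, ZNF600, ZNF320, ZNF665 and ZNF813. ZNF836 differed by 0.16 (adjusted p = 0.288). In the distal block ZNF582, ZNF460, ZNF548 and ZNF552 lay between -0.08 and 0.04. Over the 23 proximal members tested 15 were negative (median -0.08), and over the 6 distal members 5 were negative (median -0.05).

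The 7 members below the dim bound were ZNF616, ZNF578, ZNF808, ZNF28 and ZNF677 of the proximal block and ZNF471 and ZNF543 of the distal block, 19.4% of the 36, against the 30% of all genes that the bound takes by construction. Of these genes, ZNF677 and ZNF471 are known as genes whose promoters are often methylated in tumours, and ZNF808 binds MER11 transposable elements and is needed for human pancreas development. In the fit without a filter their differences ran from -0.23 to 0.20, and their adjusted p was 0.207 to 0.658. Levels this close to background give only a weak view of a change, and the background correction of the values is not known.

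Agreement over the probe sets of the members was limited, and its rate over all genes was not determined. Of 21 members with more than 1 probe set, 9 had the same sign in all of them, 7 negative and 2 positive (ZNF880 and ZNF578), while in 12 the signs differed. Those negative throughout were ZNF616, ZNF701, ZNF320, ZNF347, ZNF331, ZNF460 and ZNF587. The 4 probe sets of ZNF677 ran from -0.23 to 0.28 and the 4 of ZNF551 from -0.25 to 0.20. All 4 of ZNF677 lay below the dim bound, as did a disagreeing set of ZNF577 and of ZNF611. In ZNF83, ZNF160, ZNF765, ZNF548 and ZNF551 sets above that bound disagreed too. Over all 69 probe sets, 43 were negative, and 1 passed when every single-symbol probe set at or above the 30th percentile was tested on its own (6.05% of 28768 such probe sets passed), that of ZNF880 (adjusted p = 0.0367).

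Marks on the probe set names are common in this family. Of the 69, 13 carried _x and 8 carried _s, the mark for probe sets that match several transcripts, while 44 had no letter and 4 carried _a. The representing probe set was an _x set for 10 of 36 members. Among those at or above the dim bound, 9 of 12 _x sets and 17 of 23 sets without a letter were negative, with medians of -0.10 and -0.09 (log2). The count of members that rose and fell stayed at 1 and 1 when _x sets were left out, an alternative added after the data were seen. Signal shared between paralogs was not tested.

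**Figure D3:**
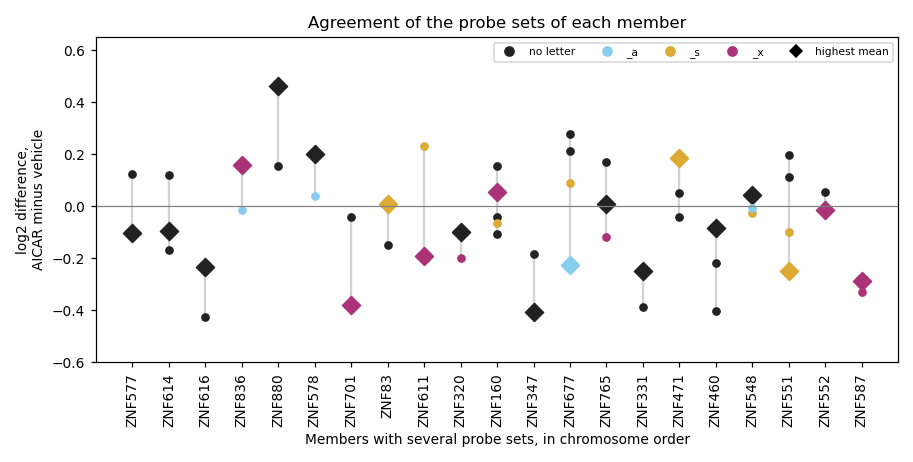
Difference AICAR minus vehicle (log2, y axis) of every probe set of the 21 members that have more than 1, in chromosome order, coloured by the letter in the probe set name, with a diamond for the probe set of highest mean. In 9 members all points lie on the same side of 0, and those of ZNF677 and ZNF551 spread to both sides.

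Other zinc finger genes were set beside the members, with no test between lists. Of 311 other genes named ZNF and a number, 4 rose (1.29%, against 4.63% of all genes tested) and 34 fell (10.9%, against 5.19%). In either direction 9.82% of all genes passed. The median of these ZNF genes was -0.07. Of 29 members 1 rose and 1 fell (3.45% each), with a median of -0.08. The other lists differ from the members in length and brightness, and some of their genes are in more than 1 list. Within the span of the members on chromosome 19 there were 25 other tested ZNF genes, of which 1 rose, ZNF581 (9.27 and 9.27 with vehicle, 9.73 and 9.81 with AICAR, difference 0.50, adjusted p = 0.0137), and 0 fell by limma (5 lower at an unadjusted p under 0.05, and 1 lower in the fit without a dim filter); their median was -0.05.

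The cluster on the short arm, 19p12, holds a second large family of KRAB zinc finger genes. Of 18 tested 19p12 genes 8 fell and 0 rose, and 16 of 18 differences were negative, with a median of -0.28 (log2). With limma 0 were also higher and 12 were lower at an unadjusted p under 0.05. ZNF91, which binds SVA elements and L1 retrotransposons, differed by -1.43 (adjusted p = 0.00320), but only 2 of its 7 probe sets were negative. ZNF43 differed by -0.65 (adjusted p = 0.0131) and ZNF431 by -0.51 (adjusted p = 0.0356). Fewer of the 18 genes passed with any single array left out, and so did fewer of all genes tested. The difference between the 2 clusters was not tested. Among the other ZNF genes that passed, ZNF91, ZNF678 and ZNF326 had the largest falls, at -1.43, -1.16 and -0.84. The largest rises among those that passed were in ZNF581 (0.50), ZNF512 (0.37) and ZNF32 (0.28).

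Genes without a ZNF symbol that lie between members on chromosome 19 included 66 tested genes. The list takes in the gap between the blocks. It was set by symbol, so zinc finger genes with other names, such as ZFP28 and ZSCAN5A, are in it. Of the 66, 2 rose (3.03%, against 4.63% of all genes tested) and 2 fell (3.03%, against 5.19%). The median of the 66 differences was 0.04, and 41 were positive. NAT14 rose by 0.33 (adjusted p = 0.0325) and the natural killer receptor gene KIR2DL1 by 0.36 (adjusted p = 0.0439). UBE2S, a ubiquitin-conjugating enzyme that works with the anaphase-promoting complex, fell by 0.43 (adjusted p = 0.0186), and NLRP2, an NLR family gene, fell by 0.31 (adjusted p = 0.0389). KIR genes are near-identical copies, so the reading of KIR2DL1 may be shared between them. Its mean with vehicle was 6.38 (log2), close to the dim bound of 6.11. Without the dim filter UBE2S passed in limma (adjusted p = 0.0403), while NAT14 (0.0694), KIR2DL1 (0.0832) and NLRP2 (0.0817) did not.

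The machinery through which KRAB proteins silence was followed in a list of 36 genes, of which 32 were tested. Of the 32, 3 fell (9.38%, against 5.19% of all genes tested) and 0 rose (against 4.63%) by limma; in either direction the share was near the 9.82% of all genes. There were 11 lower and 0 higher genes at an unadjusted p under 0.05 (13.3% and 12.8% of all genes), and the median difference was -0.15 (log2). TRIM28, the corepressor that KRAB domains bind, read 9.38 and 9.37 with vehicle and 9.21 and 9.03 with AICAR, or -0.25 (95% confidence interval from -0.45 to -0.06; adjusted p = 0.110) for the difference. SETDB1, the histone methyltransferase that TRIM28 recruits, differed by 0.01 (95% confidence interval -0.18 to 0.20, adjusted p = 0.965), with 1 of 2 probe sets positive.

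The 3 machinery genes that fell were CBX5, UHRF1 and SUV39H2. CBX5, which encodes the heterochromatin protein HP1α, read 10.74 and 10.70 with vehicle and 10.23 and 10.07 with AICAR, a difference of -0.57 (SE 0.0806, adjusted p = 0.0138); each of 6 probe sets was negative. UHRF1, which brings the maintenance methyltransferase DNMT1 to replicating DNA, read 10.35 and 10.34 against 9.80 and 9.84, a difference of -0.52 (SE 0.0662, adjusted p = 0.0109). SUV39H2, a histone methyltransferase of heterochromatin, differed by -0.36 (adjusted p = 0.0248), and both of its probe sets were negative. In all 3 the groups were far apart relative to their replicates. Fewer genes of the list passed with any single array left out, and so did fewer of all genes tested.

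**Figure D4:**
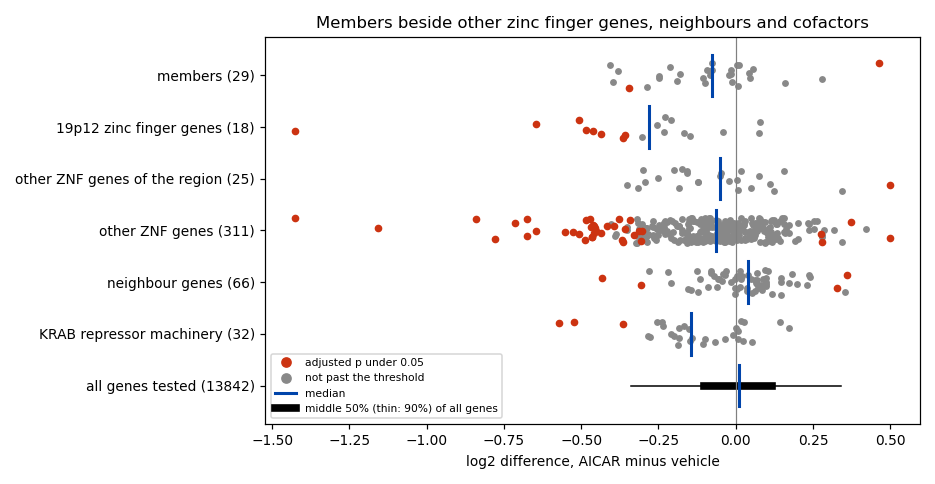
Differences AICAR minus vehicle (log2, x axis) of the 29 tested members and of the comparison lists, 1 point per gene with red for an adjusted p under 0.05 (limma), blue bars for medians, and the middle 50% and 90% of all 13842 genes at the bottom. The members centre at -0.08 with 2 red points, the 19p12 genes at -0.28 with 8 and the machinery list at -0.15 with 3.

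Across the series, the correlation between arrays of a group was 0.997 for vehicle and for AICAR over all probe sets, which are not independent replicates, and between arrays of different groups it was 0.994 to 0.995. The array medians lay between 6.37 and 6.40 (log2). The luminal markers were bright, all 10 at or above the 75.6th percentile of gene means with ERBB2 at 13.3 (log2) in the vehicle group, which is what the label BT474 calls for, and 1 of them, ESR1, fell (-0.31). Only 5 of the 9 probe sets of ESR1 were negative, and ESR1 did not pass in limma without the dim filter (adjusted p = 0.0845). Of 13 markers of stroma, endothelium and blood with a probe set, COL1A1 was at the 80.4th percentile and fell (-0.63), and the others lay at or below the 48.0th. Over the 13, 9 differences were positive and 4 negative, with COL1A2 at 0.31 (adjusted p = 0.123), and LYZ rose by 0.40 (adjusted p = 0.0472), both in the limma fit without a dim filter. The part of these markers in the results on zinc finger genes was not tested.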

How the data were processed

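The file holds normalized log2 values, 1 per probe set and array, as deposited by the authors. They were made in Affymetrix Expression Console, per the submitters' processing notes; its version, summarization and background correction are not stated there. Single-symbol probe sets (41097 of 54675) were named from the platform annotation, with 41043 matched by Entrez ID to RefSeq (GRCh38.p14) and given its symbol. Another 1801 probe sets listed several genes and 11777 none. RefSeq coordinates were used for order and for the promoter windows, whose strand was checked on 1791 overlapping pairs. Differences were fitted with limma 3.58.1 (R 4.3.3), lmFit and eBayes without a trend. The fit was also tested on simulated data, where it recovered 52% of changes of 0.5 and 97.5% of changes of 1 (log2). The number of arrays limits the precision (median SE of a log2 difference 0.0772), and no exact permutation test was run, since 2 against 2 arrays allow no p under 0.333.

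The members and lists were chosen with earlier results of these data known. Named in full are up to 12 members past the threshold, the 3 others with the largest differences, the 3 with the highest means, and any called member whose probe sets disagree in sign; from the machinery list TRIM28, SETDB1 and up to 4 called genes; and up to 3 called genes in each direction from the other lists. Members named beyond that, and the 10-letter promoter string, were picked with their values in view. Alternatives covered other dim bounds, normalizations, variance models, probe set choices and thresholds, a replicate block, and leaving out each array.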

Additional observations from a re-analysis of the deposited data

How the results depend on the processing

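The members that rose and fell, 1 and 1, ranged from 0 to 8 in all, and the genes were not always the same. The count was 1 and 0 without the dim filter, 0 and 3 with the bound at the 50th percentile, 2 and 2 after quantile normalization, 1 and 4 with a trend and robust variances, 1 and 2 with averaged probe sets, 1 and 0 with unique probe sets (no _s or _x) and with all probe sets tested, 2 and 6 at an adjusted p under 0.1, and 0 and 0 with a bound of 1.5-fold. The share of tested members that passed was 17.6% with the 50th percentile (18.3% of all genes), 17.2% with a trend and robust variances (17.8%), 13.8% after quantile normalization (10.7%), 11.1% with averaged probe sets (8.97%), 13.8% with the replicate block (8.40%) and 27.6% at an adjusted p under 0.1 (16.4%). It was 4.35% with unique probe sets (7.84% of all genes) and 2.78% without the dim filter (3.66%). With the replicate block 3 members fell and 1 rose; the same replicate numbers did not deviate together (r = -0.07 between vehicle 1 and AICAR 1, across genes), so the numbers were not taken to pair the arrays. Leaving out 1 array gave 0 to 1 members higher and 0 to 1 lower: 0 and 0 without either vehicle array, ZNF880 and ZNF480 without AICAR replicate 1, and ZNF701 alone without AICAR replicate 2. The lone array left in a group was then assumed to vary like the other group. Fewer of all genes tested also passed in each of these fits than in the main fit. A loss of calls there is therefore not particular to the members.

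The median difference of members was -0.035 after quantile normalization, where that of all genes tested moved from 0.0097 to 0.030. It was -0.021 with averaged probe sets (0.0054 over all genes), and -0.094 to -0.021 with 1 array left out. The median of members was negative in all fits made. Of 21 members with several probe sets, 9 had them all of 1 sign, 10 after quantile normalization or median centring, and 9 to 15 with 1 array left out; among unique probe sets it was 8 of 14. Near 0, ZNF765 was -0.0038 after median centring and -0.036 to 0.052 with 1 array left out, ZNF160 was -0.25 to 0.36 and ZNF468 -0.45 to 0.024.

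Counts called in the other lists (either direction) were as follows. The 19p12 genes, 8, became 5 without the dim filter, with the 50th percentile, with averaged probe sets, with unique probe sets and with all probe sets, 2 at 1.5-fold, and 1 to 6 with 1 array left out. The machinery list, 3, became 10 with a trend and robust variances, 5 with averaged probe sets, 6 with all probe sets, 0 at 1.5-fold and 0 to 2 with 1 array left out. The other ZNF genes, 38, became 21 without the dim filter, 63 with a trend and robust variances, 22 with unique probe sets, 68 at an adjusted p under 0.1, 8 at 1.5-fold and 3 to 28 with 1 array left out. The neighbour genes, 4, became 2 without the dim filter and with the replicate block, 1 with unique probe sets and with all probe sets, 0 at 1.5-fold and 0 to 2 with 1 array left out. The share of all genes that passed moved too, and was lower at 1.5-fold and in each fit with 1 array left out. The cause of these shifts was not tested.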
